A study of Mus musculus with 4 samples.

Results

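The H2 genes are the genes of the mouse major histocompatibility complex (MHC) and the loci named after it, and their CpG methylation was described here in the mouse mesenchymal stem cell (MSC) line C3H10T1/2. Members were all genes on chromosome 17 whose GENCODE vM21 symbol starts with H2-, which gave 45 genes between positions 33974659 and 37483552 of GRCm38. The methylation level of a region is the fraction, from 0 to 1, of its CpG cytosines read as methylated after bisulfite treatment. Of the 45 genes, 28 had a level for at least 1 region in any library, out of 28883 such genes in the whole series. They held 68 levels in any library and 66 in all 4, compared with 76155 in all 4 over the genome. The 66 were 12 promoters, 4 5′ UTRs, 25 exons, 22 introns and 3 3′ UTRs, where each value covers all exons or all introns of a gene together and a promoter is the 2000 bases before the transcription start.

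The study asked how depletion of DNMT1, the maintenance enzyme of CpG methylation at DNA replication, alters methylation in MSCs before and during osteoblast (OB) differentiation. C3H10T1/2 cells were transfected for 48 h with a control siRNA (NC) or with siRNA of DNMT1 (siDNMT1), and were then left uninduced or induced for 3 days in medium with ascorbic acid, β-glycerophosphate and dexamethasone. The 4 libraries were NC uninduced, siDNMT1 uninduced, NC OB and siDNMT1 OB, with 1 library for each. Unless the uninduced cells were kept for the same 3 days, OB induction cannot be told apart from time since transfection. All 4 groups share the cell line and the transfection, and siRNA acts on the transcript and leaves the gene in place.

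Each condition was sequenced once, so neither an SD nor a p-value can be given, and a difference between libraries compares those libraries only. The deposited levels carry no read numbers, so the depth behind each of them is unknown. A difference of at least 0.1 was taken as a change, and the share of all regions of the genome past it is given beside the count of H2 regions. DNMT1 itself is not measured by these values. The promoter level in NC uninduced ranged from 0.0140 at Vim to 0.799 at Thy1 over 7 mesenchymal marker genes, and from 0.12 at Itgam to 0.469 at Spi1 over the 4 of 5 haematopoietic markers that had a level. Promoter methylation is not expression, and these values do not check the identity of the cells.

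Classical class I molecules, made of a heavy chain such as H2-K or H2-D bound to β2-microglobulin, are present on most cell types and show peptides from inside the cell to CD8 T cells. Class II molecules, pairs of an α and a β chain, show peptides from taken-up proteins to CD4 T cells and are made mainly by professional antigen-presenting cells, although interferon-γ can induce them in mesenchymal cells through the coactivator CIITA. The Q, T and M regions hold many class I-like genes with restricted expression or special ligands, several of which are pseudogenes, and the K, D, Q and T genes arose by duplication and remain much alike in sequence.

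The promoters of the H2 genes differed widely in CpG content, and 5 of them are printed because their deposited promoter levels lay at the ends of the range. H2-K1, H2-Q4 and H2-M3 were among the 5 least methylated H2 promoters in NC uninduced, and H2-Ob and H2-M5 among the 5 most methylated. Each run is the 250 bases before a RefSeq transcription start in GRCm38.p6, 5′ to 3′ on the strand of the gene, with every CG in capitals. The runs lie at chr17:34000348-34000597 (minus strand) for H2-K1, chr17:35379367-35379616 (plus) for H2-Q4, chr17:37269984-37270233 (plus) for H2-M3, chr17:34238655-34238904 (plus) for H2-Ob and chr17:36989534-36989783 (minus) for H2-M5.
H2-K1: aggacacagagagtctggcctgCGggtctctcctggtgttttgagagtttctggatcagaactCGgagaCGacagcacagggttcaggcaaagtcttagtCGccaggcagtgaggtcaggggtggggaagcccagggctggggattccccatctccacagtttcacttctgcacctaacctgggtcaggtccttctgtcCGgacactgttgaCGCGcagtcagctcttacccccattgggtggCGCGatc
H2-Q4: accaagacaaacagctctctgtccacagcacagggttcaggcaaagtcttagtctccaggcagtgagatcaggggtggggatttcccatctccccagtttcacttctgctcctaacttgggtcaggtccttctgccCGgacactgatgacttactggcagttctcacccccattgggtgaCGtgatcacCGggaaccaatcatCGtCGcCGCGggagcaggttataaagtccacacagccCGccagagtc
H2-M3: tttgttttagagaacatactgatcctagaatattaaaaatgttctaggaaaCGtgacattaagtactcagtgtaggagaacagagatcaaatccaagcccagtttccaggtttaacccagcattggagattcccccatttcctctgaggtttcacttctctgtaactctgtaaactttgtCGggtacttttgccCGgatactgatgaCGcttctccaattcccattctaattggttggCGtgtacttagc
H2-Ob: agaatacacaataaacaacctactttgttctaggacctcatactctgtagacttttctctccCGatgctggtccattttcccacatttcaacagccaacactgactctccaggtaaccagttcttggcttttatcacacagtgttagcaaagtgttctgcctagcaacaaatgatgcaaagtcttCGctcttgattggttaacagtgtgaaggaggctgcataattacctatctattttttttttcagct
H2-M5: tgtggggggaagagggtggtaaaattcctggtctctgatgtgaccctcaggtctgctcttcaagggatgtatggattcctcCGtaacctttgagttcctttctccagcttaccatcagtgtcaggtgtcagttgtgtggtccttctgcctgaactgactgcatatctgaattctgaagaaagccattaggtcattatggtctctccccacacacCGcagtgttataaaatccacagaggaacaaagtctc

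The runs of H2-K1, H2-Q4 and H2-M3 hold 9, 8 and 5 CG, and those of H2-Ob and H2-M5 hold 2 each. The levels, however, are for full promoters, which hold 17, 19 and 9 CpG in the reference at H2-K1, H2-Q4 and H2-M3. The full promoters of H2-Ob and H2-M5 hold 12 and 18, so the contrast of the short runs was not kept. In the short window, the promoters at the ends of the range that are not printed did not all follow the order of the printed runs. At the low end H2-D1 holds 14 CG and H2-DMb2 holds 2. At the high end H2-T-ps holds 5, and the 2 windows of H2-DMa hold 27 and 0. A relation between CG count and level was not tested. Promoters of H2 genes held a median of 2 CG in this window, below the median of 6 over all 32851 RefSeq promoter windows. These counts rest on 35 windows of 32 H2 genes that had an entry in the RefSeq promoter table. Letter matches to motifs known from MHC promoters were counted on both strands of the same windows. ATTGG, the Y box bound by NF-Y, was found in 31 of the 35 windows (88.6%) and in 33.8% of all windows. TGACG, the core of the X2 or cyclic AMP response element, was found in 13 windows of 12 H2 genes (37.1%) and in 17.8% of all windows, and it contains a CG itself. GGGGATTCC, an NF-κB site of the class I enhancer, was found in 5 windows (14.3%) of 4 genes, H2-K1, H2-D1, H2-Q6 and H2-Q7, and in 0.213% of all windows. The core of the interferon-stimulated response element was found in 2 windows (5.71%), those of H2-T23 and H2-T22, and in 2.98% of all windows. Of the 5 printed runs, those of H2-K1, H2-Q4 and H2-M3 hold TGACG and ATTGG, that of H2-Ob holds ATTGG, and that of H2-M5 holds none of the 4. A match describes the letters only and is not a measured binding site.

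Promoter levels of the 12 H2 genes ranged from 0.0105 to 0.744 in the NC uninduced library. Their median was 0.217, compared with 0.191 over all 20152 promoters, and for protein-coding genes alone it was 0.14 over 9 H2 promoters and 0.11 over 13593 promoters. H2-M3, which encodes a class I-like molecule that presents N-formylated peptides, had a promoter level of 0.0105, and only 2.11% of all promoters were lower. H2-M5, another class I-like gene of the M region, had a promoter level of 0.744, and 92.6% of all promoters were lower. The order of the other promoters ran from H2-Q4, H2-D1, H2-DMb2 and H2-K1 at the low end to H2-DMa, H2-Ob, H2-Pa and H2-T-ps at the high end. With no replicates it cannot be said which neighbors in this order differ beyond their spread.

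**Figure D1:**
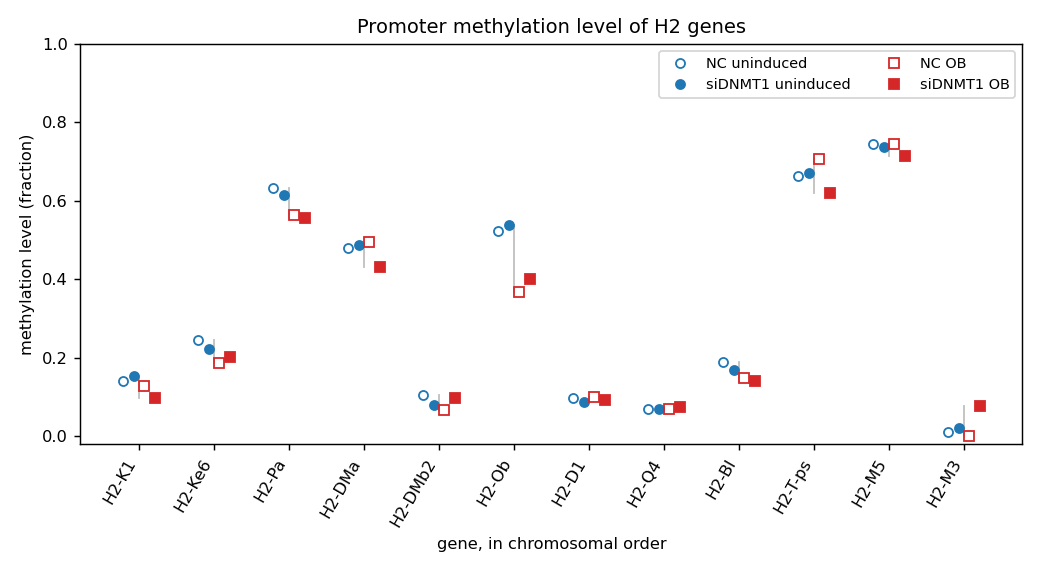
Promoter methylation level (fraction, vertical axis) of the 12 H2 genes with a promoter level in all 4 libraries, in chromosomal order, with 1 point per library. At H2-Ob the 2 OB points (0.368 and 0.4) lie at least 0.1 below the 2 uninduced points (0.524 and 0.538). Both OB points also lie below both uninduced points at H2-K1, H2-Ke6, H2-Pa and H2-Bl, by less than 0.1. No gene other than H2-Ob spans more than 0.0863.

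The classical class I genes H2-K1 and H2-D1 both had weakly methylated promoters in every library. H2-K1, on the minus strand at positions 33996017 to 34000347, had promoter levels of 0.14 in NC uninduced, 0.152 in siDNMT1 uninduced, 0.128 in NC OB and 0.0964 in siDNMT1 OB. H2-D1, on the plus strand at positions 35262730 to 35267499, had promoter levels of 0.0978, 0.0864, 0.0991 and 0.0928 in the same order of libraries, which is kept below. The siDNMT1 OB library was the lowest at H2-K1, 0.0316 below NC OB, whereas the 4 libraries of H2-D1 differed by at most 0.0127. No gene of the annotation used here carries the symbol H2-L.

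At H2-K1 the regions at the gene start, in the run with 9 CG shown above and downstream of it, had like levels. Its 5′ UTR had levels of 0.194, 0.195, 0.16 and 0.131, and its exons 0.188, 0.187, 0.156 and 0.133. The CpG island across its start, at positions 33999257 to 34000398, had levels of 0.148, 0.157, 0.131 and 0.1. In each of these regions siDNMT1 OB was the lowest library and NC OB the next lowest, by less than 0.1. The promoter, 5′ UTR, exons and island overlap or adjoin, so they are not independent measurements. The H2-K1 introns were higher and did not show this order, with levels of 0.351, 0.322, 0.354 and 0.356. At H2-D1 the introns (0.0978, 0.0773, 0.0813 and 0.0928) had the same levels as the island at positions 35262982 to 35264128. That island does not span the GENCODE start of H2-D1. The promoter and intron levels of H2-D1 were equal in NC uninduced and in siDNMT1 OB, so they may not be independent measurements either.

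Of the 9 class I genes of the K and Q regions, 4 had a level, and only H2-Q4 had a promoter level in all 4 libraries. H2-Q4 encodes a class I-like heavy chain, and its promoter, whose run with 8 CG is shown above, was at 0.0693, 0.0691, 0.0676 and 0.0750. The spread of 0.00739 over the 4 libraries was the smallest of the 12 promoters and of all 66 H2 levels. The island across the H2-Q4 start, at positions 35379547 to 35380650, was higher than the promoter, at 0.201, 0.201, 0.184 and 0.175.

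H2-Q10 encodes a class I molecule that is secreted by the liver. Its exons had levels of 0.337, 0.345, 0.272 and 0.279, with both OB libraries below both uninduced libraries, and the differences were -0.0652 in NC and -0.0661 in siDNMT1. The island across its start, at positions 35469968 to 35470988 and overlapping those exons, gave 0.311, 0.323, 0.249 and 0.260. Its 5′ UTR was at 0.144, 0.0862, 0.0367 and 0.157, so NC OB was the lowest library and siDNMT1 OB the highest. In the annotation used here that 5′ UTR is 18 bases long and holds 2 CpG. A promoter level of H2-Q10, 0.533, was found in siDNMT1 uninduced alone, so it entered no comparison.

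Of the 7 class I genes of the T region, 5 had a level. H2-T23 encodes Qa-1, a class I-like molecule that binds the CD94-NKG2 receptors of natural killer cells, and it had a level for its exons only. These were 0.14, 0.134, 0.115 and 0.0960, lowest in siDNMT1 OB. The promoter of H2-Bl, a class I-like gene of this region, had levels of 0.189, 0.168, 0.149 and 0.14. It matched, within 0.001, the levels of the island inside the gene at positions 36083219 to 36084219, which does not span the GENCODE start of the gene. The promoter of the pseudogene H2-T-ps had levels of 0.664, 0.670, 0.707 and 0.620, while its exons were at 0.155, 0.161, 0.144 and 0.143. H2-T-ps overlaps the gene BC023719, and the same values were deposited for the BC023719 intron and promoter, so they cannot be assigned to either gene alone.

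Of the 14 class I genes of the M region, 7 had a level, and the 2 with a promoter level lay at opposite ends. H2-M3, whose run with 5 CG is shown above, had promoter levels of 0.0105, 0.0194, 0 and 0.0769, highest in siDNMT1 OB. Its 5′ UTR was at 0, 0.00649, 0.00917 and 0, its exons at 0.145, 0.12, 0.106 and 0.128, and its introns at 0.0558, 0.0452, 0.05 and 0.0479. H2-M5, with 2 CG in its printed run, was methylated throughout, with promoter levels of 0.744, 0.737, 0.744 and 0.713. Its exons were at 0.778, 0.766, 0.763 and 0.737 and its introns at 0.643, 0.618, 0.616 and 0.603, and siDNMT1 OB was the lowest library in all 3 regions.

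The M10 genes of the M region, which are expressed with pheromone receptors in vomeronasal neurons, had levels for gene bodies only. H2-M10.3 varied the most, with exon levels of 0.453, 0.221, 0.345 and 0.286 and intron levels of 0.304, 0.319, 0.442 and 0.279. Its exons were highest in NC uninduced and its introns in NC OB, so the 2 regions did not follow each other. The exons of its neighbors H2-M10.2, H2-M10.4 and H2-M10.5, named here after their values were seen, differed by at most 0.0307 over the 4 libraries and had levels between 0.489 and 0.741. The intron of the pseudogene H2-M6-ps was at 0.707, 0.776, 0.676 and 0.622, lowest in siDNMT1 OB.

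**Figure D2:**
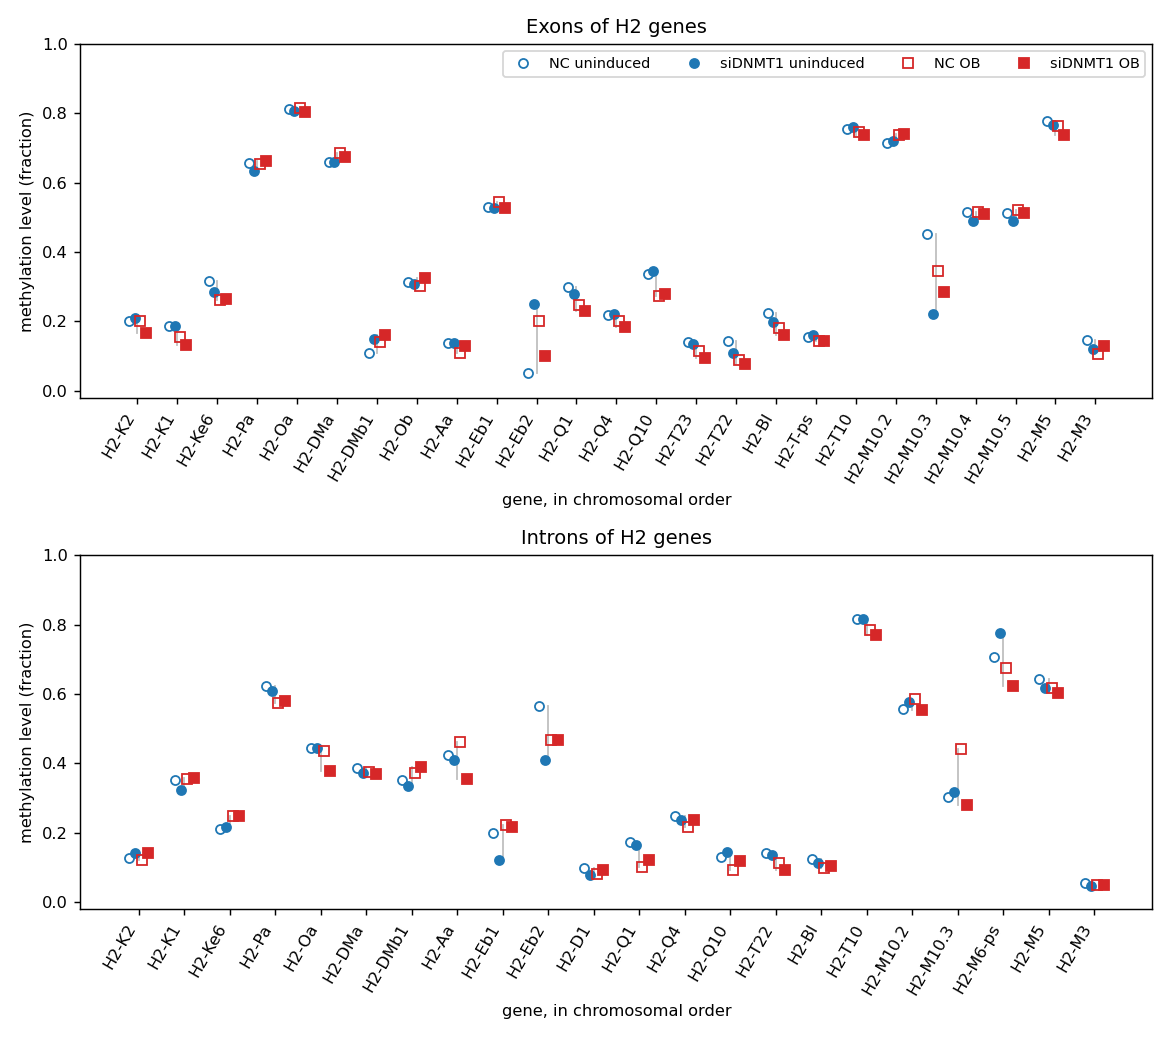
Methylation level (fraction, vertical axis) of the exons of 25 H2 genes and the introns of 22 H2 genes, in chromosomal order, with 1 point per library. Levels ranged from below 0.1 to above 0.8, and the points of H2-M10.3 and H2-Eb2 spread more than those of their neighbors.

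Of the 12 class II genes, 9 had a level and 4 had a promoter level, with a median of 0.502 in NC uninduced. The 4 were H2-Ob, H2-DMa, H2-DMb2 and the pseudogene H2-Pa. The H2-DMa level does not describe the island at its GENCODE start, as given below. The median therefore does not stand for the promoters of class II chain genes. H2-Ob encodes the β chain of H2-O, which restrains peptide loading in B cells. Its promoter had levels of 0.524 in NC uninduced, 0.538 in siDNMT1 uninduced, 0.368 in NC OB and 0.4 in siDNMT1 OB. Both OB libraries were therefore below both uninduced libraries, by 0.155 in NC and 0.138 in siDNMT1, and siDNMT1 was within 0.0316 of NC at both stages. The 2000 bases of this promoter in the reference hold 12 CpG, 2 of them in the printed run, and no CCGG. The H2-Ob exons, at 0.315, 0.308, 0.302 and 0.326, did not show this order.

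H2-Oa, the α chain gene of H2-O, had no promoter level, and its exons were strongly methylated at 0.813, 0.808, 0.816 and 0.804. Its introns were lower, at 0.443, 0.443, 0.434 and 0.378, with siDNMT1 OB the lowest.

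H2-DM, the exchange factor that loads peptides onto class II molecules, is encoded by H2-DMa, H2-DMb1 and H2-DMb2. The H2-DMa promoter had levels of 0.480, 0.486, 0.494 and 0.430. The CpG island across the GENCODE start of H2-DMa, at positions 34118397 to 34122981, had levels of only 0.0130, 0.0163, 0.0128 and 0.0128. The deposited H2-DMa promoter level therefore does not describe that island, and the gene models behind the deposited promoters were not given in the sources used here. The H2-DMa exons, at 0.659, 0.660, 0.686 and 0.675, and introns, at 0.385, 0.371, 0.376 and 0.370, stayed within 0.0267 over the 4 libraries. The H2-DMb2 promoter was weakly methylated, at 0.104, 0.0787, 0.0665 and 0.0960. The exons of H2-DMb1 were at 0.110, 0.149, 0.14 and 0.161, lowest in NC uninduced, and its 3′ UTR carried the same 4 values.

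The chains of the classical class II molecules had levels in gene bodies only. H2-Aa encodes the α chain of I-A, and its exons were at 0.137, 0.138, 0.109 and 0.130 and its introns at 0.424, 0.410, 0.462 and 0.354. The introns were highest in NC OB and lowest in siDNMT1 OB. H2-Eb1 encodes the β chain of I-E, and its exons were at 0.531, 0.528, 0.543 and 0.526 and its introns at 0.198, 0.121, 0.223 and 0.218, lowest in siDNMT1 uninduced. H2-Eb2, a further β chain gene, had exon levels of 0.05, 0.25, 0.2 and 0.1 and intron levels of 0.567, 0.409, 0.467 and 0.467. Its exons were lowest and its introns highest in NC uninduced. H2-Ab1, the β chain gene of I-A, and H2-Ea-ps had no level to analyse here. H2-Pa, a pseudogene of the class II region, had a highly methylated promoter, at 0.632, 0.614, 0.562 and 0.556, with the OB libraries lower than the uninduced ones by less than 0.1.

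H2-Ke6 lies in the complex but encodes a hydroxysteroid dehydrogenase, not an antigen-presenting molecule. Its 5′ UTR had levels of 0.286, 0, 0.0667 and 0, highest in NC uninduced and listed at 0 in both siDNMT1 libraries. Its promoter and the island across its start were named after their values were seen. The promoter was at 0.244, 0.221, 0.186 and 0.2, a spread of 0.0581. The island, at positions 34027468 to 34028189, was at 0.248, 0.226, 0.190 and 0.210. In uninduced cells siDNMT1 minus NC was -0.0218 at the island, so the island did not share the large fall of the 5′ UTR.

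After siDNMT1 in uninduced cells, 4 of the 66 H2 regions changed by at least 0.1. The 3 that fell were the H2-Ke6 5′ UTR (by 0.286), the H2-M10.3 exons (by 0.232) and the H2-Eb2 introns (by 0.158), which was 4.55% of the H2 regions and compares with 0.852% of all regions in the genome. The H2-Eb2 exons rose by 0.2, which was 1.52% of the H2 regions and compares with 0.692% of all. None of the 12 H2 promoters changed, compared with 1.48% of all promoters. The median difference over the 66 H2 regions was -0.0066, and over all 76155 regions it was -0.0016.

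After siDNMT1 in OB cells, 4 H2 regions changed by at least 0.1. The H2-M10.3 introns (by 0.163), the H2-Aa introns (by 0.109) and the H2-Eb2 exons (by 0.1) fell, which was 4.55% of the H2 regions beside 1.44% of all. The H2-Q10 5′ UTR rose by 0.12, which was 1.52% beside 0.725% of all. None of the H2 promoters changed, beside 2.2% of all promoters. The H2-Eb2 exons were the single H2 region past 0.1 both in uninduced and in OB cells, and they rose after siDNMT1 in the first and fell in the second. With each difference taken relative to the median of its region class, the H2-Aa introns (-0.0956) and the H2-Eb2 exons (-0.0931) no longer reached the threshold in OB cells, so 1 lower region and no region past it at both stages were left. The median difference was -0.0077 over the H2 regions and -0.0062 over all.

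Between NC OB and NC uninduced, 7 H2 regions changed by at least 0.1. The 5 that were lower in OB were the H2-Ke6 5′ UTR (by 0.219), the H2-Ob promoter (by 0.155), the H2-M10.3 exons, the H2-Q10 5′ UTR (by 0.108 each) and the H2-Eb2 introns (by 0.1), which was 7.58% of the H2 regions beside 1.33% of all. Relative to the class median the H2-Eb2 introns were at -0.0957. The 2 that were higher were the H2-Eb2 exons (by 0.15) and the H2-M10.3 introns (by 0.138), which was 3.03% beside 0.815% of all. Among promoters, 1 of 12 changed, that of H2-Ob, beside 2.18% of all promoters.

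Between siDNMT1 OB and siDNMT1 uninduced, 3 H2 regions were lower in OB, the H2-M6-ps intron (by 0.153), the H2-Eb2 exons (by 0.15) and the H2-Ob promoter (by 0.138). This was 4.55% of the H2 regions beside 2.42% of all, and no H2 region was higher by 0.1, beside 0.98% of all. The H2-Eb1 introns were 0.0972 higher, and relative to the class median they passed the threshold at 0.109. The H2-Ob promoter was again the 1 promoter of 12 past the threshold, beside 3.37% of all promoters. The median difference over the 66 H2 regions was -0.0144 in NC and -0.0185 in siDNMT1, beside -0.0034 and -0.0080 over all regions. The 4 comparisons share libraries pairwise, so a library that stands apart at a region enters 2 of them.

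**Figure D3:**
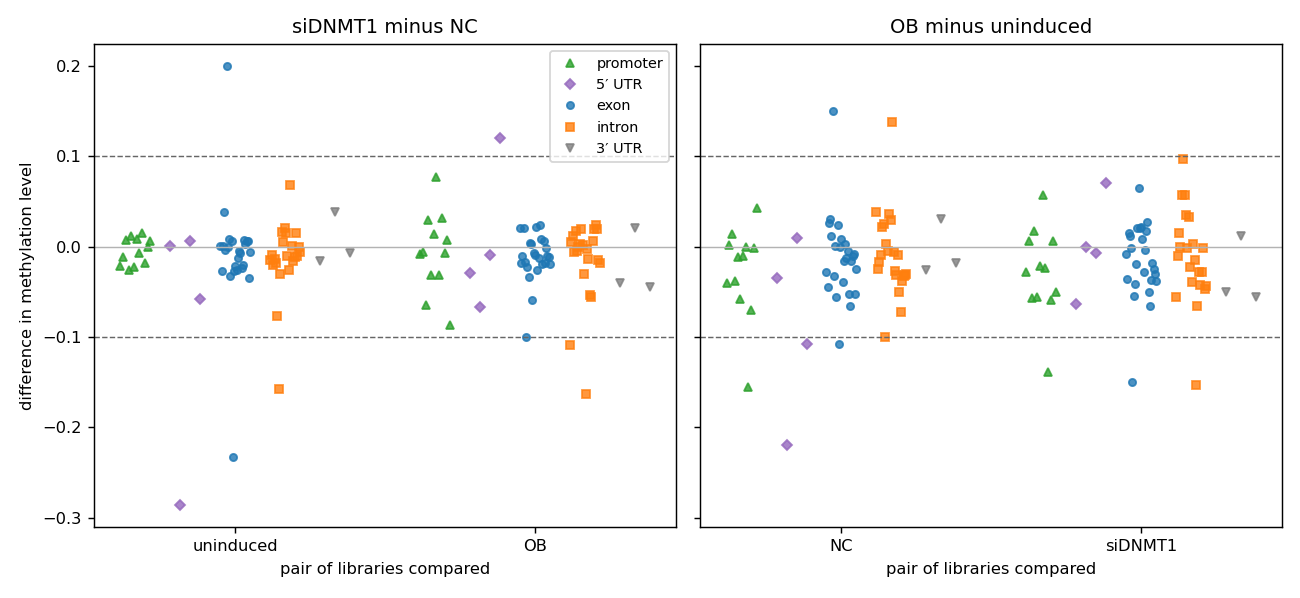
Difference in methylation level (vertical axis) of the 66 H2 regions, siDNMT1 minus NC on the left and OB minus uninduced on the right, with 1 symbol per region class and dashed lines at a difference of 0.1 in either direction. Most points lie near 0, and the largest fall is that of the H2-Ke6 5′ UTR after siDNMT1 in uninduced cells (-0.286).

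In all, 9 regions of 7 H2 genes changed in any comparison and 57 stayed within 0.1 in all 4. Over all 76155 regions, 5.66% changed in any comparison. The 9 H2 regions held a median of 14 CpG in the reference, with a range of 2 to 68, and the 57 others a median of 30, with a range of 0 to 396. The H2-Ke6 5′ UTR, with the largest change, holds 43 CpG and the H2-Eb2 introns hold 68, both above the median of the 57. The 43 were counted over 4 annotated segments, and the deposited level may rest on fewer of them. All of these are counts in the reference, and the number of cytosines read behind each level is unknown. For CCGG, the site cut by MspI in reduced representation bisulfite sequencing (RRBS), the medians were 2 and 4. The part of CpG number and of depth in these changes was not tested. Among the 474 regions of other genes in the same interval of chromosome 17, siDNMT1 was at least 0.1 lower at 4 and higher at 4 before induction, and lower at 4 and higher at 3 in OB cells. Between OB and uninduced cells, 6 of these regions were lower and 2 higher in NC, and 7 were lower and 6 higher in siDNMT1.

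Below the 0.1 threshold, the exons of class I genes outside the M region showed small differences of mostly the same sign. This group was formed after the values were seen and gets no test. The exons of 9 genes (H2-K1, H2-K2, H2-Q1, H2-Q4, H2-Q10, H2-T23, H2-T22, H2-Bl and H2-T-ps) had mean levels between 0.1 and 0.4. In NC, 8 of the 9 were lower in OB than in uninduced cells, with a median difference of -0.0321, and in siDNMT1 all 9 were lower, with a median of -0.0376. The largest of these was H2-Q10, described above, and the exons of H2-Q1 were at 0.301, 0.281, 0.249 and 0.230. The exons of H2-T22 were at 0.143, 0.108, 0.0900 and 0.0782, decreasing in that order of libraries. Of all 5033 exon levels in that range of the scale, 70.7% were lower in OB in NC and 74.0% in siDNMT1, with medians of -0.0156 and -0.0219. Of the 33 such exon levels of other genes in the interval, 84.8% and 75.8% were lower, so the direction was also common outside the H2 genes.

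The genes that serve antigen presentation from outside the H2 family had mostly steady promoters. Of the class I pathway, 12 promoters had a level, and none differed by 0.1 in any comparison. B2m, the gene of β2-microglobulin, was nearly unmethylated, at 0.0288, 0.0162, 0.0197 and 0.0255. Nlrc5, the gene of the class I transactivator, was at 0.254, 0.235, 0.240 and 0.230. The peptide transporter genes Tap1 and Tap2, which lie in the class II region, were at 0.192, 0.213, 0.145 and 0.152 and at 0.0956, 0.0989, 0.0825 and 0.0884. Tapbp, the gene of tapasin, was at 0.468, 0.446, 0.395 and 0.443. The immunoproteasome genes Psmb8 and Psmb9 were at 0.485, 0.474, 0.486 and 0.488 and at 0.0609, 0.0607, 0.0511 and 0.0465. Both OB libraries were below both uninduced libraries at Tap1, Tap2, Tapbp and Psmb9, by less than 0.1.

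Of the class II pathway, 8 promoters had a level, and none differed by 0.1. Ciita was at 0.337, 0.338, 0.353 and 0.336, within 0.0167 over the 4 libraries. Cd74, the gene of the invariant chain, had no promoter level to analyse here, and its exons were at 0.789, 0.786, 0.827 and 0.790. Of interferon signaling, 13 promoters had a level and 2 differed by 0.1 in a comparison, beside 5.55% of all promoters in any of the 4. Ifngr1, the gene of an interferon-γ receptor chain, was at 0.742, 0.504, 0.642 and 0.721, lowest in siDNMT1 uninduced. Jak1, the gene of a kinase bound to interferon receptors, was at 0.0783, 0.0414, 0.173 and 0.151, with both OB libraries above both uninduced libraries. Median promoter differences for the 3 lists lay between -0.0094 and 0.0053. Those of the H2 promoters were -0.0039 and -0.0066 for siDNMT1 in uninduced and OB cells and -0.0112 and -0.0256 for OB in NC and siDNMT1. In the same order the medians over all 20152 promoters were -0.0007, -0.0037, -0.0032 and -0.0065. Over the 9 promoters of protein-coding H2 genes the siDNMT1 medians were -0.00018 in uninduced cells and 0.0074 in OB cells, so the sign in OB cells turned. Over all 13593 protein-coding promoters these 2 medians were -0.00024 and -0.0026.

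Fewer H2 genes had a level than the genes around them. Of the 34 protein-coding H2 genes, 22 had one (64.7%), beside 77% of 139 in the interval and 80.6% of 21951 in the whole annotation. The labels name RRBS, in which MspI cuts DNA at CCGG, although the protocol given for the libraries describes shearing by sonication. Of 16 H2 promoters with no CCGG in the 2000 bases before the GENCODE start, 2 had a level in any library (12.5%), those of H2-Ob and H2-Bl. The share was 12.9% of 194 such promoters of protein-coding genes on chromosome 17. The H2-Bl promoter level matched an island inside the gene, as given above, so it may not describe the 2000 bases before the start. Of 29 H2 promoters with at least 1 CCGG, 11 had a level (37.9%), beside 74.2% of 862 on the chromosome. Among protein-coding H2 genes alone, the numbers were 1 of 12 (8.33%) and 9 of 22 (40.9%). The promoters with CCGG were not alike in CpG number, with a median of 20 over the 29, 19 over the 22 and 34.5 over the 862. The part of CpG number in these shares was not tested. The median number of CpG in the promoter was 26 for the 13 H2 promoters with a level and 13 for the 32 without. Those with a level include H2-DMa, with 144 CpG, whose deposited level does not describe the island at its GENCODE start.

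**Figure D4:**
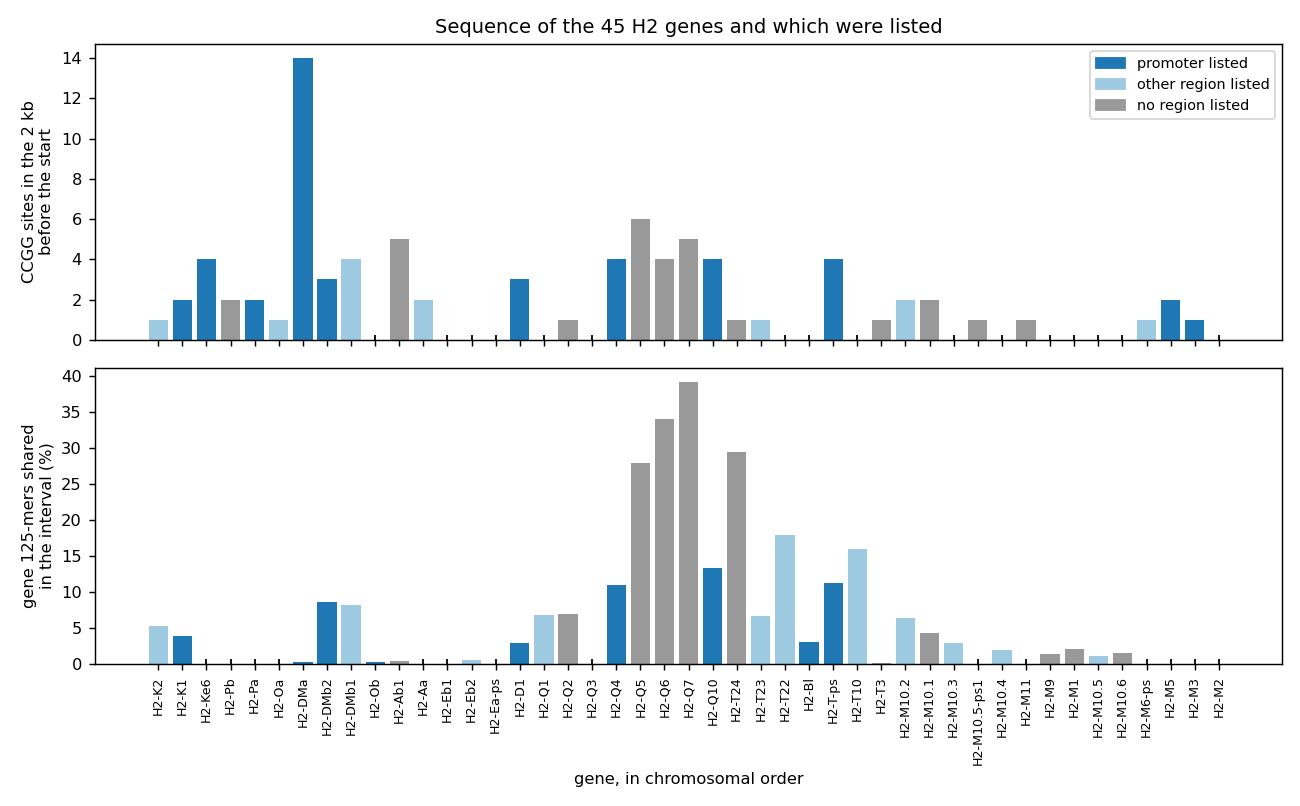
Number of CCGG sites in the 2000 bases before the start (top) and percentage of read-length stretches shared within the interval after bisulfite conversion (bottom) for the 45 H2 genes in chromosomal order. Bar color shows whether the promoter, another region or no region of the gene had a level, and H2-Q6, H2-Q7, H2-T24 and H2-Q5 are tall bars in the bottom panel with no region listed.

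Near-identical copies were the other feature that varied among the H2 genes. A stretch as long as the shorter read length of the study's methods was called shared when it occurred more than once in the interval after bisulfite conversion of either strand. The shared portion was 28.0% of H2-Q5, 34.0% of H2-Q6, 39.2% of H2-Q7 and 29.4% of H2-T24, and none of these 4 genes had a level. It was 6.97% or less of the other 13 genes without a level, among them H2-Ab1 at 0.298%, which has 5 CCGG in its promoter. Genes with a level reached 17.9% at H2-T22, and the median was 2.87% over the 28 genes with a level and 1.30% over the 17 without, so the groups did not separate by this measure. Reads were aligned to the mm10 genome, which is of the C57BL/6J strain, whereas C3H10T1/2 cells derive from C3H embryos, and H2 genes are highly polymorphic between strains. The part of strain differences and of shared sequence in these levels was not tested.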

How the data were processed

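Genomic DNA of 4 C3H10T1/2 libraries, 1 per condition, was measured by bisulfite sequencing that the labels call RRBS. Per the submitters' processing notes, CASAVA, Trimmomatic (version 0.36) and Bismark (version 0.16.3) and the mm10 build were used. The authors deposited, per region and library, the fraction of methylated CpG cytosines from 0 to 1. The coverage minimum and the weighting of cytosines are not given in the sources used here, and the depth is unknown, so no interval was computed for a level.

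H2 regions were matched by Ensembl ID through GENCODE vM21. Differences were taken between levels in all 4 libraries and counted from 0.1. Each condition had 1 library, so no test was made. Sequences came from RefSeq (GRCm38.p6). CpG and CCGG were counted in GENCODE regions, which may differ from the authors' gene models: the H2-Q10 intron there holds 0 CpG although a level was deposited.

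The members, gene lists and motifs were chosen with earlier results of these data known. Genes named were the classical class I and class II chain genes, H2-M3, H2-T23 and H2-Q10, all regions past 0.1 in a comparison, the 5 highest and 5 lowest promoters in NC uninduced, Nlrc5, Ciita, B2m, Tap1, Tap2, Tapbp, Psmb8, Psmb9, Cd74 and other pathway promoters past 0.1. H2-K2, H2-Q1, H2-T22, H2-Bl, H2-M10.2, H2-M10.4, H2-M10.5, genes without a level and genes of motif matches were named after their values were seen. Alternatives covered the threshold, centring, protein-coding members, a minimum level and regions in both libraries compared. The functions were tested on simulated data. The scripts ran under Python 3.11.15 with numpy 2.4.6, pandas 2.3.3, matplotlib 3.10.9 and scipy 1.17.1.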

Additional observations from a re-analysis of the deposited data

Results flagged for a closer look

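The H2-Eb2 exons moved in opposite directions at the 2 stages. The difference siDNMT1 minus NC was 0.2 in uninduced cells and -0.1 in OB cells, and the difference OB minus uninduced was 0.15 in NC and -0.15 in siDNMT1. These are the same 4 levels (0.05, 0.25, 0.2 and 0.1) read along the 2 axes of the design. With 1 library per condition the difference between stages was not tested. The exons of H2-Eb2 hold 25 CpG and 2 CCGG in the reference.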

How the results depend on the processing

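No paired analysis was possible because each condition has 1 library. With a threshold of 0.05, siDNMT1 gave 5 lower and 2 higher H2 regions in uninduced cells (3.86% and 2.65% of all regions) and 9 lower and 2 higher in OB cells (7.59% and 2.48%), and OB gave 13 lower in NC (6.9%) and 13 lower and 6 higher in siDNMT1 (11.6% and 3.14%). With a threshold of 0.2, siDNMT1 in OB cells gave 0 lower and 0 higher (0.265% and 0.213%), and OB gave 1 lower and 0 higher in NC (0.226% and 0.154%) and 0 lower in siDNMT1 (0.41%). After centring differences on the median of the region class, siDNMT1 in OB cells gave 1 lower region and OB in siDNMT1 gave 1 higher. The median promoter difference of siDNMT1 minus NC in OB cells turned from -0.0066 over 12 promoters to 0.0074 over the 9 of protein-coding members, where the uninduced median moved from -0.0039 to -0.00018 and the median level in NC uninduced from 0.217 to 0.14. The other medians kept their sign and the other counts of all H2 regions stayed within 1.5 times under the alternatives run, and 7 counts of promoters alone moved with the threshold. Depth is unknown and each condition had 1 library, so a change past 0.1 cannot be told apart from sampling. This holds for every region, whatever its number of CpG in the reference.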
